A study of Homo sapiens with 8 samples.

Results

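Bleomycin at 240 µg/ml, the middle of 3 doses, was compared with no drug in human H7 embryonic stem cell-derived cultures, across all genes. The comparison used 4 of the 8 libraries of the series: 2 of cells given 240 µg/ml and 2 of cells given none, chosen by the dose in their labels. The cells are wild type and the labels name them differentiated type 2 alveolar cells. Their differentiation ran for 21 days to lung progenitors, with 3 further days under medium on culture inserts and 7 in which the upper cell surface faced air. The drug, 500 µl of it, was put on that surface for 24 hours, and untreated cells were differentiated alike without it. The 4 other libraries, 2 at 24 µg/ml and 2 at 480 µg/ml, served to test where the middle dose differs from its neighbours and to estimate the spread. Only 1 cell line was used. Nothing in the labels tells if the 2 libraries of a group came from separate cultures, so p-values measure only how far these libraries spread, perhaps for technical reasons. The drug stock is labelled 10 µg/ml, less than the dose compared here, so the true dose scale is uncertain.

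Bleomycin binds DNA together with iron and oxygen and cuts both strands. Cells that sense such breaks stabilise the p53 protein, a transcription factor whose targets halt the cell cycle, repair DNA or start cell death. Type 2 alveolar cells, which make surfactant and renew the alveolar lining, are the cells whose injury by bleomycin is used in animals to model lung fibrosis.

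The defining markers of type 2 cells were low or missing in these cultures. SFTPC, the surfactant protein that only type 2 cells make, had 0 counts in all 4 libraries compared. NKX2-1, the lung lineage factor, was at 0.827 and 1.02 CPM (counts scaled to library size) in untreated cells and at 0.288 and 0.261 CPM in treated cells. AFP, the fetal albumin relative of liver and yolk sac, was at 42583 and 44115 CPM in untreated cells and at 65032 and 58968 CPM in treated ones. CDX2, an intestinal master factor, was at 206 and 190 CPM untreated and at 307 and 312 CPM treated. Total counts of the 8 libraries lay between 53431773 and 67715984, and a count of 0 allows up to 3 counts, or 0.0443 to 0.0561 CPM. Across genes, the log2 ratio of 1 library to the other had an SD of 0.515 untreated and 0.52 at 240 µg/ml, but 0.637 at 480 µg/ml.

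Of 46427 symbols, 18303 had enough counts to be tested. Against untreated cells 945 genes were higher at 240 µg/ml, which is 5.16% of those tested, and 947 were lower, which is 5.17%. A change of at least 2-fold was carried by 360 of the higher genes, 1.97% of all tested, and by 334 of the lower ones, 1.82%. Those at least 2-fold changed were 68 higher and 81 lower without the first untreated library, 69 and 91 without the second, 151 and 149 without the first 240 µg/ml library, and 68 and 50 without the second. On log2(TPM + 1) limma gave 108 and 188. The median log2 fold change over all tested genes was 0.009. A gene is called higher or lower where edgeR's quasi-likelihood test over all 8 libraries gave a Benjamini-Hochberg adjusted p under 0.05, and the ± after a log2 fold change is its SE. An exact permutation test of 2 against 2 libraries cannot go below p = 0.333. Groups that do not overlap are therefore weak support for a gene, and genes named for a small p tend to lie apart anyway. The share of all tested genes whose groups lay apart is not given here. Single genes thus rest on the fit across all genes. Without the 2 libraries of 480 µg/ml, whose spread enters that fit, 2487 genes were higher and 2590 lower. With 1 library of an arm left out, the lone library is assumed to vary like the other groups, and the calls fell steeply. They were 68 higher and 85 lower without the first untreated library, 69 and 95 without the second, 180 and 167 without the first 240 µg/ml library and 70 and 50 without the second. Without the first 24 µg/ml library 563 were higher and 550 lower, without the second 565 and 566, without the first 480 µg/ml library 2392 and 2576, and without the second 2438 and 2544.

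**Figure D1:**
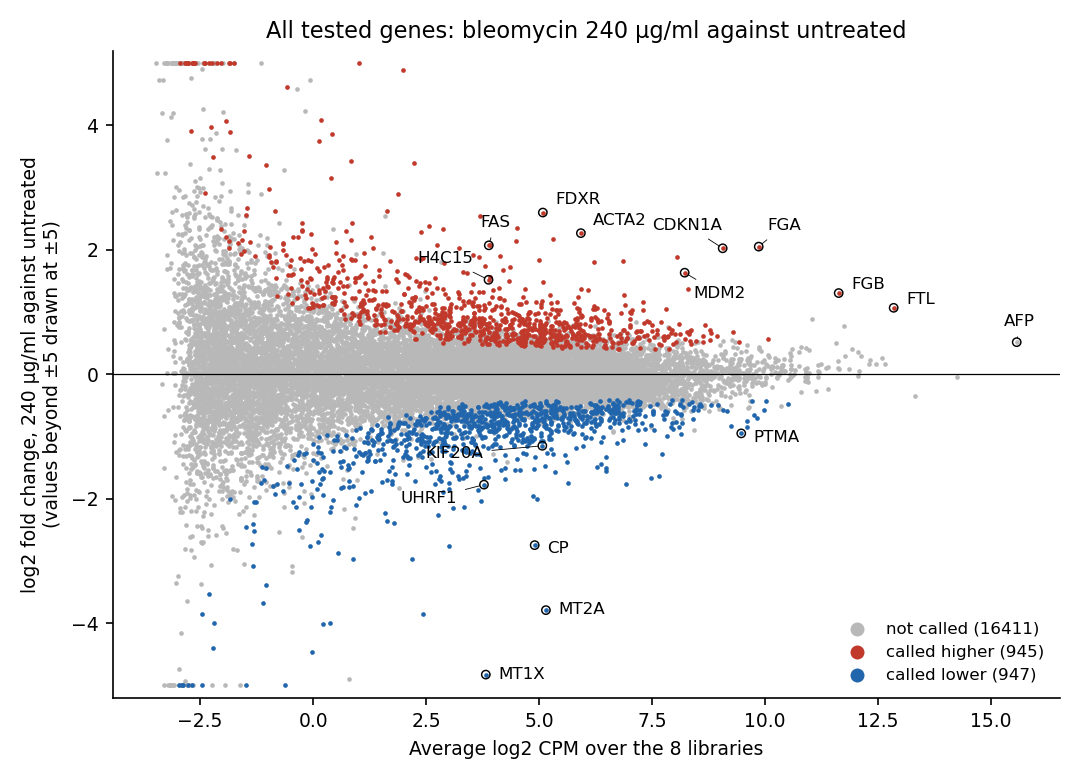
Each point is 1 of 18303 tested genes, with average log2 CPM over the 8 libraries on the horizontal axis and the log2 fold change of 240 µg/ml against untreated on the vertical axis, values beyond 5 either way being drawn at the edge. The 945 genes called higher are red, the 947 called lower are blue, and MT1X and MT2A lie lowest among the labelled genes while FDXR lies highest.

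Targets of p53 rose in 36 of 55 tested cases, while 5.16% of all tested genes were higher. This list and the others were chosen with earlier results of these data known, so counts of called members are descriptions and not tests. Of 20 tested targets that arrest the cycle or feed back on p53, 13 were higher and 1 was lower, with a median log2 fold change of 0.66 against 0.009 over all genes. With 1 untreated or 240 µg/ml library left out the count of higher members was 3 to 6. CDKN1A, the inhibitor of cyclin-dependent kinases that halts the cycle, was at 189 and 158 CPM untreated and at 720 and 694 CPM treated, a log2 fold change of 2.03 ± 0.19 (adjusted p = 0.0013, 4.07-fold). MDM2, the ligase that degrades p53, was at 126 and 130 CPM untreated and at 397 and 397 CPM treated (1.63 ± 0.13, adjusted p = 0.00072). The treated libraries lay far above the untreated ones for both genes, and the gap between replicates was small beside that between groups. TRIM22, an antiviral ligase that p53 can induce, rose from 6.89 and 7.37 CPM to 21.2 and 20.9 CPM (1.56 ± 0.14). GDF15, a secreted stress cytokine, rose from 163 and 133 CPM to 416 and 350 CPM (1.37 ± 0.17, adjusted p = 0.00374). Groups did not overlap for either gene, but both were named for a small p.

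Among 15 tested p53 targets of the cell death machinery, 10 were higher and 1 was lower, with a median log2 fold change of 1.05, and without 1 untreated or 240 µg/ml library the count higher was 2 to 8. FAS, a death receptor on the cell surface, was at 4.75 and 5.47 CPM untreated and at 22.5 and 20.5 CPM treated (2.07 ± 0.17, adjusted p = 0.000893). TNFRSF10C, a decoy receptor that binds the death ligand TRAIL without signalling, rose from 8.54 and 7.7 CPM to 27.6 and 25.9 CPM (1.72 ± 0.13). A killing receptor and a decoy receptor were both higher. BBC3 and BAX, mitochondrial killers of the BCL2 family, were at 8.4 and 7.12 and at 77.8 and 64 CPM untreated. In treated cells BBC3 was at 23.4 and 26.2 CPM (1.68 ± 0.21) and BAX at 146 and 161 CPM (1.12 ± 0.17). EDA2R, a receptor for ectodysplasin, rose from 12.3 and 11.3 CPM to 23.7 and 25.1 CPM (1.05 ± 0.12). BID, another killer of that family, was the member that fell, from 19.7 and 16.8 CPM to 11.6 and 10.7 CPM (-0.71 ± 0.18, adjusted p = 0.0407). Of 16 tested members of the whole BCL2 family only BBC3 and BAX were higher and BID was lower.

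The third group of p53 targets, for repair and metabolism, held the gene with the highest log2 fold change of the comparison among genes of average log2 CPM of at least 3. Of its 20 tested members 13 were higher and 0 were lower, with a median of 0.88, and without 1 untreated or 240 µg/ml library the count higher was 6 to 10. FDXR, a mitochondrial electron carrier used as a blood marker of radiation, rose from 7.71 and 7.6 CPM to 47.3 and 45.5 CPM (2.60 ± 0.19, adjusted p = 0.00072). GLS2, the liver-type glutaminase, was at 0.701 and 0.604 CPM and rose to 4.78 and 4.96 CPM (2.90 ± 0.27). ABCA12, a lipid transporter of skin, was at 0.665 and 0.622 CPM and rose to 6.84 and 6.81 CPM (3.40 ± 0.33). These low levels rest on fewer counts than that of FDXR, yet the pairs of replicates lay close together. SYTL1, a vesicle docking protein, rose from 8.11 and 6.53 CPM to 29.2 and 35.3 CPM (2.14 ± 0.22). DDB2, which recognises ultraviolet damage for excision repair, was named after its values were seen, because its start site holds a p53 element. It rose from 38.2 and 34.7 CPM to 88.6 and 97.4 CPM (1.35 ± 0.14, adjusted p = 0.00173).

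The promoter of DDB2 shows the p53 element in capitals, 5′ to 3′ on the strand of the gene, in a window around a RefSeq start (GRCh38.p14, chr11:47214724-47215023).
DDB2: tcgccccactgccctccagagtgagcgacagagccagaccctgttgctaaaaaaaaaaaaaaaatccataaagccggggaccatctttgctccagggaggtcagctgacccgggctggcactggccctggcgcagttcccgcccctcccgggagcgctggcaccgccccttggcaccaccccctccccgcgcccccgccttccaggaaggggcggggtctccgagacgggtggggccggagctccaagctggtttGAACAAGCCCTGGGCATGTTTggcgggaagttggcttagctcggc
The element, a pair of p53 consensus sites close together, was searched on both strands and ended 25 bases after the start. It was found in only 6 tested genes out of 13134 with a promoter window. Most p53 targets of the lists lacked it in their windows. It was found in 0 of 15 arrest and feedback genes, 0 of 11 cell death genes and 1 of 18 repair and metabolism genes. Of these 6, DDB2, LNCTAM34A and PTCHD4 were called higher, while MCC, DYNC2H1 and PURPL were not called. Over all tested genes 5.16% were higher, and 6 genes are too few to compare with that share. A match is a description of letters, not a shown site, and sequence outside the window was not searched.

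Other genes high on the ranking were PROM2, a membrane organiser of epithelial protrusions, which rose from 3.4 and 4.01 CPM to 18.8 and 24.5 CPM (2.55 ± 0.20). APLP1, a relative of the amyloid precursor, rose from 11.7 and 13.2 CPM to 51.7 and 60.6 CPM (2.17 ± 0.22). HHAT, which attaches palmitate to hedgehog proteins, rose from 3.07 and 3.4 CPM to 13.1 and 13.3 CPM (2.03 ± 0.15). The ranking took only genes whose groups lay apart, so their lack of overlap follows from the rule. INKA2, an inhibitor of the kinase PAK4, rose from 6.98 and 6.84 CPM to 25.3 and 26.6 CPM (1.91 ± 0.14), and TSPAN11, a tetraspanin, from 5.03 and 5.41 CPM to 17.3 and 21.4 CPM (1.89 ± 0.22). RN7SL2 and RN7SL1, the near-identical RNAs of the signal recognition particle, were also named by the ranking, with 32.2 and 72.7 and with 20.2 and 46.3 CPM in the treated libraries. Their untreated levels were 12.9 and 7.6 CPM for RN7SL2 and 10.2 and 5.51 CPM for RN7SL1. The second treated library stood well above the first for both, their copies share sequence, and poly(A) selection is not meant to retain them, so these values are uncertain.

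Genes of cell division fell. Of 37 tested genes of G2 phase and mitosis, 30 were lower and 0 higher, with a median log2 fold change of -0.81, and of 13 mitotic kinesins 8 were lower and 0 higher, with a median of -0.66 (2 lower with any 1 of the untreated or 240 µg/ml libraries left out). Without the second treated library 1 of the 37 was called lower, without the first 4, and without the first untreated library 2. The promoters of PRC1 and NUSAP1 are shown because they carry, in capitals, the matches that most genes of this group share: the CCAAT box (CCAAT), bound by NF-Y, and the cell cycle homology region or CHR (TTTGAA), bound by the repressor complex DREAM and by MYBL2 complexes. The windows are chr15:90994486-90994785 on the minus strand for PRC1 and chr15:41332631-41332930 on the plus strand for NUSAP1 (RefSeq, GRCh38.p14), both written 5′ to 3′ on the strand of the gene.
PRC1: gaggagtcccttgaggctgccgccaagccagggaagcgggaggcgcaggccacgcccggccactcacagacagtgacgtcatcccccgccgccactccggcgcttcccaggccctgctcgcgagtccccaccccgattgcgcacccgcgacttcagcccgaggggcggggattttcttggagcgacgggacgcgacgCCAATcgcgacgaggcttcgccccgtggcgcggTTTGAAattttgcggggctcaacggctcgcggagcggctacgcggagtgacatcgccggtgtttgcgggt
NUSAP1: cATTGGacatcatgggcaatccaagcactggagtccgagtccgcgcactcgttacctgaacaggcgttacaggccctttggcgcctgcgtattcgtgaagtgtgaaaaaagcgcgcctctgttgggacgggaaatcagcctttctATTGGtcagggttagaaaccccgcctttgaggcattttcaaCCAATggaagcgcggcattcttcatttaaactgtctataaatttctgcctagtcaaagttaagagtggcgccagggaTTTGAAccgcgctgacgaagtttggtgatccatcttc
Matches were searched on both strands, and neighbouring matches may share an edge base. TTTGAA was present in 76.7% of the 30 genes of G2 phase and mitosis with a promoter window and in 69.2% of the 13 kinesins, against 14.3% of all 13134 tested genes with a window. It was present in 23.6% of the 712 genes called lower with a window and in 10.0% of the 718 called higher. CCAAT was present in 83.3% of the G2 and mitosis genes against 42.3% of all. The replication genes, which also fell, held TTTGAA in 2.6% of 38. These shares describe letters in windows, some genes having several listed starts, and were not tested.

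By level, KIF20A, a kinesin of the central spindle, was at 49.7 and 50.8 CPM untreated and at 22.4 and 22.9 CPM treated (-1.15 ± 0.11, adjusted p = 0.00135). PRC1, which bundles the microtubules of that spindle, fell from 55.2 and 56.1 CPM to 28.8 and 30.6 CPM (-0.91 ± 0.12). BIRC5, the survivin subunit of the chromosomal passenger complex, fell from 47.2 and 46 CPM to 24.2 and 24.3 CPM (-0.94 ± 0.11). All 3 had about 2-fold less message in each treated library. NUSAP1, a spindle protein, fell from 46.7 and 51.7 CPM to 27.1 and 27.1 CPM (-0.86 ± 0.12), and AURKB, the kinase of the passenger complex, from 25.5 and 23.9 CPM to 11.4 and 13.6 CPM (-0.99 ± 0.13). KIF18B, a kinesin that trims astral microtubules, fell from 13.5 and 13.4 CPM to 5.96 and 6.12 CPM (-1.16 ± 0.14). MKI67, the proliferation antigen, fell from 119 and 126 CPM to 46.2 and 41.3 CPM (-1.49 ± 0.23, adjusted p = 0.00779). In bulk RNA, fewer dividing cells and less message per cell cannot be told apart.

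Genes of the S phase fell to a smaller share. Of 45 tested replication genes 20 were lower and 1 was higher, with a median of -0.51. Without the 480 µg/ml libraries 32 were lower, and without 1 untreated or 240 µg/ml library 1 to 4. UHRF1, which carries DNA methylation through replication, was at 23.4 and 24.2 CPM untreated and at 6.59 and 7.35 CPM treated (-1.77 ± 0.13, adjusted p = 0.00072). MCM7, part of the replicative helicase, fell from 96.6 and 98.7 CPM to 49.5 and 48.1 CPM (-1.001 ± 0.13). RRM2, the small subunit of ribonucleotide reductase, fell from 51.2 and 61.6 CPM to 29 and 25.7 CPM (-1.05 ± 0.14). TYMS, thymidylate synthase, was the replication gene that rose, from 70.1 and 70.8 CPM to 115 and 116 CPM (0.71 ± 0.11, adjusted p = 0.00699). The 2 libraries of each group lay close together for this gene, and the treated ones were above the untreated ones.

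Of 19 tested genes of the E2F and retinoblastoma system, 7 were lower and 0 higher, with a median of -0.20. Without either untreated library or the second treated one that count was 0, and without the first treated one 1. E2F1 and E2F2, activators of S phase genes, were at 8.51 and 8.83 and at 2.99 and 3.18 CPM untreated. They were at 4.23 and 3.12 CPM (-1.24 ± 0.21) and at 1.19 and 1.11 CPM (-1.42 ± 0.22) in treated cells. FOXM1, the activator of mitotic genes, fell from 52.6 and 52.2 CPM to 33.1 and 33.4 CPM (-0.66 ± 0.11). The list of other kinase inhibitors and senescence genes had 18 tested members, of which only CDKN1A was higher and 8 were lower, with a median of -0.52. Leaving out 1 untreated or 240 µg/ml library brought the 8 to 1 or 2. CDKN2B, the inhibitor p15, fell from 17.9 and 16.7 CPM to 7.09 and 5.52 CPM (-1.46 ± 0.15), and LMNB1, the nuclear lamin lost in senescence, from 53.2 and 57.5 CPM to 27.4 and 29.9 CPM (-0.95 ± 0.13).

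Repair genes outside the p53 lists did not rise as a group. Of 27 tested genes of homologous recombination and the Fanconi pathway 8 were lower and 1 was higher. The 8 became 13 without the 480 µg/ml libraries and 0 with any 1 of the untreated or 240 µg/ml libraries left out. RAD51C, a recombination protein, rose from 4.14 and 4.37 CPM to 6.72 and 7.92 CPM (0.78 ± 0.17, adjusted p = 0.0222), while RAD54L, a DNA translocase of the same pathway, fell from 16.5 and 19.1 CPM to 9.97 and 11.1 CPM (-0.76 ± 0.13). Of 26 tested genes that signal breaks or join ends 4 were lower and 0 higher. The 4 became 9 without the 480 µg/ml libraries, 1 without the first treated library and 0 without either untreated or the second treated one. XRCC4, the scaffold of the ligase that rejoins broken ends, fell from 35 and 30.2 CPM to 17.7 and 11.7 CPM (-1.15 ± 0.19, adjusted p = 0.00977). PRKDC, the catalytic subunit of the kinase of the same pathway, fell from 150 and 194 CPM to 104 and 104 CPM (-0.73 ± 0.17), and CHEK1, the kinase that halts the cycle at stalled forks, from 22 and 24.6 CPM to 14.5 and 12.1 CPM (-0.81 ± 0.16).

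Counts of replication-dependent histones moved against those of the replication genes. Messages of these histones normally end in a stem-loop without a poly(A) tail, and poly(A) selection is not meant to retain them. The counts therefore do not measure the total histone message. Of 60 such histones 31 were tested, 11 of them were higher and 0 lower, with a median of 0.81, and without 1 untreated or 240 µg/ml library the count higher was 1 to 3. H4C15 rose from 5.77 and 6.2 CPM to 16.2 and 18.1 CPM (1.52 ± 0.14, adjusted p = 0.0013), and H2BC4 from 3.02 and 2.99 CPM to 10.3 and 8.23 CPM (1.62 ± 0.21, adjusted p = 0.00395). H1-2, a linker histone, rose from 17.2 and 15.4 CPM to 40 and 32.3 CPM (1.15 ± 0.19). Treated libraries lay above untreated ones for all 3, but histone copies are near-identical in sequence and single values are therefore uncertain. Of 11 tested histone variants, which are made outside S phase with poly(A) tails, 0 were called by edgeR in either direction, 4 were higher and 2 lower at an unadjusted p under 0.05, and DESeq2 called 2 higher and 1 lower. The promoter of H2BC4 (RefSeq, GRCh38.p14, chr6:26123877-26124176, minus strand, 5′ to 3′) is shown because its capitals mark matches that most of the histone promoters hold. These are CCAAT and TATAAA, the letters of the TATA box, on either strand.
H2BC4: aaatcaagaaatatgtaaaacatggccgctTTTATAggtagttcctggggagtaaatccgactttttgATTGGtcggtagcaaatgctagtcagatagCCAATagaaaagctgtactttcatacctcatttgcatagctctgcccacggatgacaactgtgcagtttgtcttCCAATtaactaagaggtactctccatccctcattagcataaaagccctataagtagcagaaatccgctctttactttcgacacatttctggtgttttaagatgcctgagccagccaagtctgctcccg
CCAAT was present in 83.3% of 30 histone genes with a window against 42.3% of all tested genes, and TATAAA in 66.7% against 9.6%. Matches were counted at any place in the window. The TATAAA match of H2BC4 lies on the opposite strand, at -220 to -215 from the start, and is not shown to be its TATA box.

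**Figure D2:**
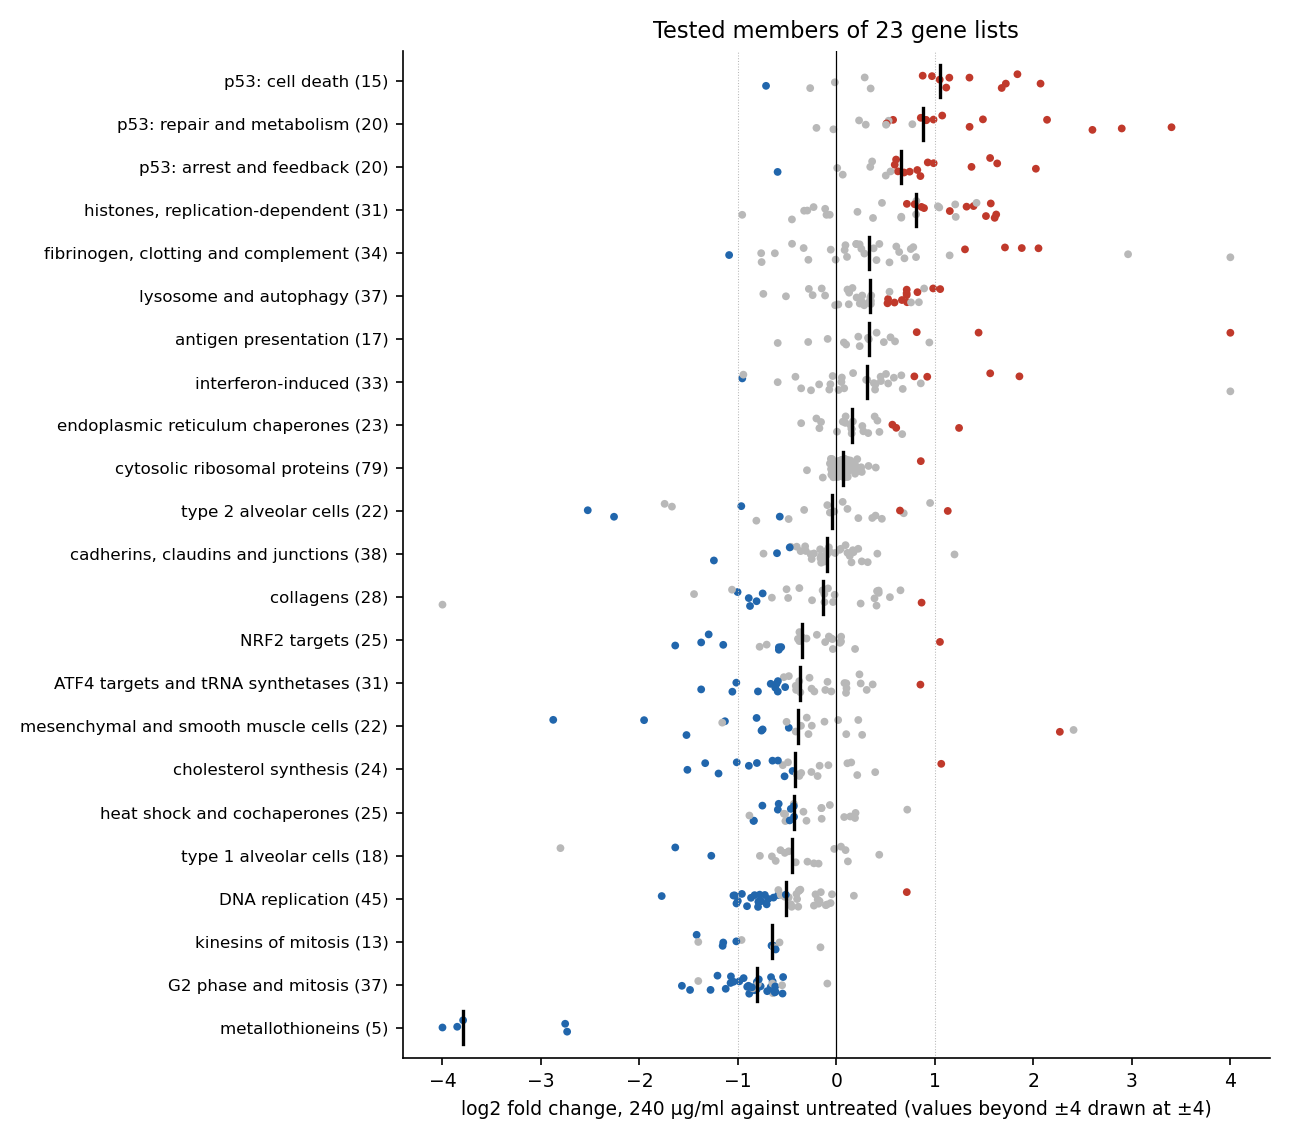
Each point is a tested member of the gene list named at left (number tested in brackets), placed by its log2 fold change at 240 µg/ml against untreated, with members called higher in red, called lower in blue and not called in grey, and the median as a black bar, values beyond 4 either way being drawn at the edge. The median of the p53 death list lies at 1.05, that of G2 phase and mitosis at -0.81 and that of the metallothioneins at -3.79.

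Metallothioneins, small cysteine-rich proteins that bind zinc and copper, had the lowest median of the lists described here. All 5 of the 12 members that could be tested were lower, with a median log2 fold change of -3.79, and the other 7 were too rare to test. The summed level of the family was 159 and 147 CPM untreated and 14.8 and 7.62 CPM treated. MT2A was at 90.8 and 81.2 CPM untreated and at 8.43 and 4.05 CPM treated (-3.79 ± 0.38, adjusted p = 0.00158). MT1X fell from 33.3 and 35 CPM to 1.65 and 0.784 CPM (-4.83 ± 0.43, adjusted p = 0.00107), and MT1E from 13.6 and 12.3 CPM to 1.15 and 0.653 CPM (-3.85 ± 0.30, adjusted p = 0.00072). The first treated library was above the second for these genes, and both were far below the untreated libraries. Per length, MT2A was at 504 and 481 TPM (a length-scaled transcript abundance) untreated, above CDKN1A at 198 and 177 TPM. In treated cells MT2A was at 44.9 and 21.6 TPM, below CDKN1A at 725 and 697 TPM.

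The promoters of MT2A and MT1X are shown because they hold many copies of the core of the metal response element (TGCNCNC, N any base), which the zinc-sensing factor MTF1 binds. Capitals mark the element on either strand and TATAAA, in the windows chr16:56608334-56608633 and chr16:56682220-56682519 of the plus strand (RefSeq, GRCh38.p14), 5′ to 3′.
MT2A: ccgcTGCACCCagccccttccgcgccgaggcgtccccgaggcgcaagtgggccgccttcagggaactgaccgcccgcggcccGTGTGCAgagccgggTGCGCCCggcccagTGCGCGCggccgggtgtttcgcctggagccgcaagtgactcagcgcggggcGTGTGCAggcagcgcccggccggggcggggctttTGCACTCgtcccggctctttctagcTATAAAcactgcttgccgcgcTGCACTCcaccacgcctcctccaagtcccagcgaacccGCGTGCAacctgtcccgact
MT1X: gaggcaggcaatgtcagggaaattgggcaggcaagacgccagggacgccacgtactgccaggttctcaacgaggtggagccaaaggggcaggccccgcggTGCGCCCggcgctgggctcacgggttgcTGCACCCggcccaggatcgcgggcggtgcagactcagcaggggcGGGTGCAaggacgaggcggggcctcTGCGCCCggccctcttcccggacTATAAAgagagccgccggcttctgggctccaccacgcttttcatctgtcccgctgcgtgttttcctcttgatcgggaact
The window of MT2A held 8 matches to TGCNCNC and that of MT1X held 4. This short pattern was present in 69.5% of all tested genes with a window, with a mean of 1.26 matches a gene in the window that held most. The shares were 73.3% among genes called lower and 68.7% among genes called higher. Only these 2 metallothioneins had a promoter entry.

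Few other metal genes were called. Over all tested genes 5.16% were higher and 5.17% lower, and the metal genes called higher are near that share. Of 28 tested genes for zinc, copper and iron 2 were higher and 4 lower, and the 4 became 1 or 2 without 1 untreated or 240 µg/ml library. CP, ceruloplasmin, the copper protein that oxidises iron for export, fell from 62.2 and 55.8 CPM to 6.9 and 10.7 CPM (-2.75 ± 0.26, adjusted p = 0.0013). TFRC, the receptor that imports iron on transferrin, fell from 224 and 242 CPM to 119 and 96.1 CPM (-1.12 ± 0.17, adjusted p = 0.00793). SLC30A1, the zinc exporter of the cell surface, fell from 93 and 95.6 CPM to 59.8 and 50.5 CPM (-0.77 ± 0.16). FTL, the light chain of ferritin that stores iron, rose from 4345 and 3686 CPM to 8604 and 8238 CPM (1.07 ± 0.18, adjusted p = 0.0104). The iron importer was lower and the storage chain higher.

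Most detoxification genes were not called. Over all tested genes 5.16% were higher and 5.17% lower, and 1 called member of 25 is near that share. Of 25 tested targets of NRF2, the factor of oxidative stress, 7 were lower and 1 was higher, with a median of -0.35. Without the 480 µg/ml libraries 11 were lower, and without 1 untreated or 240 µg/ml library 2 to 4. The reductase AKR1B10 fell from 20 and 17.1 CPM to 6.34 and 5.6 CPM (-1.64 ± 0.17, adjusted p = 0.00183). AKR1C1 and AKR1C2, which are near-identical and share reads, fell from 74.2 and 68.9 to 30.8 and 27.4 CPM (-1.30 ± 0.17) and from 40.2 and 40.1 to 17.9 and 18.4 CPM (-1.15 ± 0.12). SLC7A11, the cystine importer, fell from 26.4 and 28.3 CPM to 9.47 and 11.6 CPM (-1.37 ± 0.23). EPHX1, the microsomal epoxide hydrolase, was the target that rose, from 44.3 and 46.3 CPM to 90.7 and 97.2 CPM (1.05 ± 0.16). Of 25 tested genes of oxygen radical defence 4 were higher and 1 lower, and the 4 became 1 or 2 without 1 untreated or 240 µg/ml library. The 4 that rose were all glutathione transferases: GSTA2 (1.28 ± 0.13), GSTA4 (0.79 ± 0.11), GSTA1 (0.61 ± 0.12) and GSTM3 (0.58 ± 0.13), and SOD2, the mitochondrial superoxide dismutase, fell from 113 and 114 CPM to 81.6 and 75.6 CPM (-0.53 ± 0.13). GSTA2 was at 69.6 and 78.8 CPM untreated and at 167 and 192 CPM treated. GSTA1 and GSTA2 are near-identical, so how reads were shared between them is uncertain. BLMH, the hydrolase that inactivates bleomycin, was at 30.8 and 30.4 CPM untreated and at 38.2 and 38.1 CPM treated and was not called (0.32 ± 0.11, adjusted p = 0.107).

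**Figure D3:**
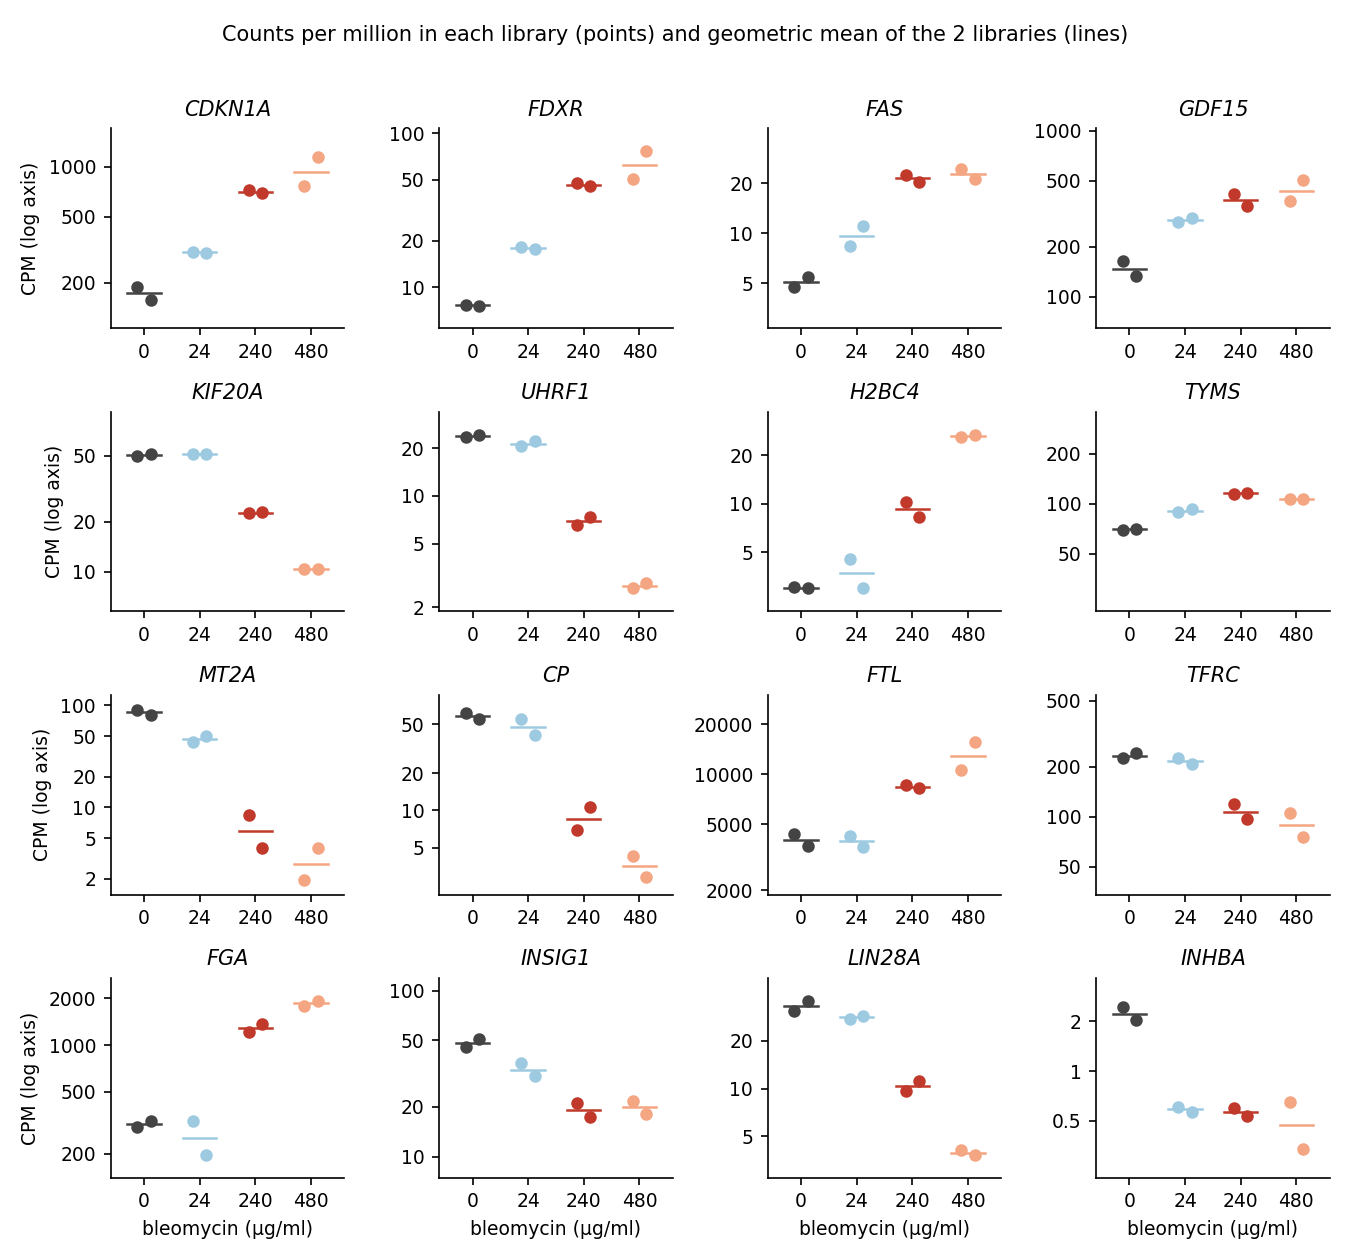
Each panel gives 1 gene in all 8 libraries, with the bleomycin dose on the horizontal axis, CPM on a log axis, a point for each library and a line for the geometric mean of the 2 libraries. At 240 µg/ml, CDKN1A sits at 720 and 694 CPM against 189 and 158 CPM untreated, and MT2A at 8.43 and 4.05 CPM against 90.8 and 81.2 CPM.

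Fibrinogen, the clotting protein made of 3 chains, rose in all of its chains. FGA was at 298 and 326 CPM untreated and at 1216 and 1368 CPM treated (2.05 ± 0.21, adjusted p = 0.0018). FGB rose from 1696 and 2017 CPM to 4591 and 4586 CPM (1.31 ± 0.15), and FGG from 108 and 125 CPM to 386 and 473 CPM (1.88 ± 0.27). All 3 chains, encoded side by side on chromosome 4, were higher in both treated libraries. Per length the chains were unequal: FGB at 1042 and 1323 TPM, FGA at 277 and 321 TPM and FGG at 125 and 153 TPM in untreated cells. Of 34 tested genes of fibrinogen, clotting and complement, these chains and F5, clotting factor V, were higher and only C3, the central complement protein, was lower. F5 was at 0.432 and 0.432 CPM untreated and at 1.25 and 1.58 CPM treated (1.71 ± 0.30), and C3 at 32.8 and 29.9 and at 17.9 and 11.6 CPM (-1.09 ± 0.28, adjusted p = 0.0415). Without the 480 µg/ml libraries 8 were higher, and without either untreated library or the second treated one 2. Of 17 tested albumin relatives and apolipoproteins 0 were called by edgeR in either direction, while 3 were higher and 0 lower both at an unadjusted p under 0.05 and by DESeq2. AFP had a log2 fold change of 0.52 ± 0.16 (adjusted p = 0.0684) and ALB, at 1680 and 1746 CPM untreated and 2785 and 3533 CPM treated, one of 0.88 ± 0.26 (adjusted p = 0.0635). Without the 480 µg/ml libraries both passed the threshold.

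Markers of the alveolus gave a mixed picture. Of 22 tested type 2 cell genes 2 were higher and 4 lower (1 lower with any 1 of the untreated or 240 µg/ml libraries left out), with a median of -0.04, and the summed level of all 25 was 1480 and 1344 CPM untreated and 1324 and 1259 CPM treated. SLC34A2, the phosphate carrier of type 2 cells, fell from 14.1 and 15.3 CPM to 4.03 and 2.14 CPM (-2.26 ± 0.30, adjusted p = 0.00424). LPCAT1, which makes surfactant phospholipid, fell from 120 and 117 CPM to 75.9 and 82.8 CPM (-0.58 ± 0.11). SFTPB, surfactant protein B, was at 14.9 and 16.9 CPM and at 11.5 and 11.2 CPM and was not called (-0.49 ± 0.39). ABCA3, the lamellar body lipid pump, was at 11.9 and 14.2 CPM and at 19.4 and 16.6 CPM and was not called (0.46 ± 0.16). CA2, a carbonic anhydrase, rose from 162 and 158 CPM to 250 and 251 CPM (0.65 ± 0.11). Of 18 tested type 1 cell genes 0 were higher and 2 lower: GPRC5A, an orphan receptor, from 342 and 332 CPM to 132 and 84.6 CPM (-1.64 ± 0.19), and RTKN2, a marker of the same cells, from 15.7 and 19 CPM to 7.15 and 7.25 CPM (-1.27 ± 0.15).

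Gut and liver identity genes did not move as 1 block. CDX2 rose (0.64 ± 0.14, adjusted p = 0.0218), as did ISX, the intestinal homeobox factor that limits vitamin A uptake, from 266 and 262 CPM to 382 and 382 CPM (0.53 ± 0.12). NR1H4, the bile acid receptor FXR, fell from 7.34 and 5.96 CPM to 2.15 and 0.473 CPM (-2.36 ± 0.51, adjusted p = 0.0247), with a wide gap between the treated libraries. Of 29 tested genes of the intestinal lining 0 were higher and 3 lower, with a median of -0.47. SLC17A4, a urate and thyroid hormone carrier, fell from 15.3 and 17.6 CPM to 3.52 and 3.9 CPM (-2.15 ± 0.19, adjusted p = 0.00115), TM4SF4, a tetraspanin-like protein, from 379 and 347 CPM to 143 and 157 CPM (-1.27 ± 0.15), and LGR5, the stem cell receptor, from 13.5 and 14.2 CPM to 5.88 and 3.07 CPM (-1.63 ± 0.28). The summed level of that list was 6164 and 6160 CPM untreated and 6422 and 4918 CPM treated, so the groups overlapped. The part of a shift in cell makeup in any of these results was not tested.

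The stated purpose of the series is the expression of a fibrosis-related phenotype, which the collagens and matrix genes bear on. Of 28 tested collagens 1 was higher and 5 lower, with a median of -0.13. The 1 higher is near the share over all genes, and the 5 lower became 0 without either untreated or the second treated library and 1 without the first treated one. The summed level of the collagens was 5389 and 5491 CPM untreated and 6508 and 6014 CPM treated, so the sum was higher in both treated libraries. The collagens named below lie far under that sum, which rests mostly on members not named here. COL1A1, the main chain of scar collagen, was at 44.9 and 56.2 CPM and at 48.2 and 44.8 CPM and was not called (-0.12 ± 0.18), with overlapping groups. COL3A1 fell from 47.1 and 59.5 CPM to 29.8 and 31 CPM (-0.81 ± 0.17, adjusted p = 0.0222), COL1A2 from 21.3 and 25.9 CPM to 13.3 and 14.9 CPM (-0.75 ± 0.18), and COL12A1 from 12.1 and 12.3 CPM to 6.01 and 6.19 CPM (-1.004 ± 0.14). COL17A1, a hemidesmosome collagen of epithelia, was the one that rose, from 8.76 and 9.12 CPM to 17.8 and 14.8 CPM (0.86 ± 0.14, adjusted p = 0.0097). FN1, fibronectin, was at 11178 and 12512 CPM and at 9687 and 8968 CPM and was not called (-0.34 ± 0.11, adjusted p = 0.0813). Of 38 tested matrix glycoproteins and crosslinkers 1 was higher and 4 lower, with a median of -0.03, and the 4 became 0 with any 1 of the untreated or 240 µg/ml libraries left out. P4HA2, a collagen proline hydroxylase, rose from 155 and 163 CPM to 217 and 207 CPM (0.41 ± 0.11, adjusted p = 0.0484). VCAN, the proteoglycan versican, fell from 932 and 1045 CPM to 648 and 532 CPM (-0.74 ± 0.18), and THBS1, which activates latent TGF-beta, from 70.9 and 82.4 CPM to 49.6 and 41.7 CPM (-0.75 ± 0.17).

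Smooth muscle genes went opposite ways. ACTA2, smooth muscle actin and the usual marker of myofibroblasts, rose from 20.4 and 17.1 CPM to 86.9 and 93.9 CPM (2.27 ± 0.17, adjusted p = 0.00072). TAGLN, a smooth muscle actin-binding protein, fell from 61 and 39.4 CPM to 10.7 and 15.2 CPM (-1.95 ± 0.26, adjusted p = 0.00427), and CNN1, calponin, from 3.22 and 2.57 CPM to 0.288 and 0.49 CPM (-2.88 ± 0.40, adjusted p = 0.00522). Of 22 tested mesenchymal and smooth muscle genes ACTA2 was the only one called higher and 8 were lower (3 with any 1 of the untreated or 240 µg/ml libraries left out), with a median of -0.39. ACTA2 (GRCh38.p14, chromosome 10, 88935074 to 88991337) overlaps the 5′ part of FAS (88964050 to 89017059), which lies on the opposite strand and also rose. The strand counted is not given in the sources used here, so reads of ACTA2 and FAS in the overlap may not be separated. S100A4, a calcium-binding protein of fibroblasts, fell from 14.5 and 13.2 CPM to 4.4 and 5.26 CPM (-1.52 ± 0.15). VIM, vimentin, was at 502 and 506 CPM and at 499 and 581 CPM, with overlapping groups (0.10 ± 0.16). CDH1, the epithelial cadherin, was at 1060 and 1057 CPM and at 982 and 919 CPM and was not called (-0.16 ± 0.12), and EPCAM at 1049 and 1079 CPM and at 1109 and 924 CPM overlapped (-0.07 ± 0.12).

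Genes of TGF-beta signalling fell in few members. Of 38 tested genes of TGF-beta, activin and BMP signalling 1 was higher and 5 were lower, with a median of -0.10. The 5 became 0 without either untreated library or the second treated one and 2 without the first treated one. TGFB1 was at 60.1 and 58.7 CPM and at 80.4 and 62.5 CPM and was not called (0.27 ± 0.20, adjusted p = 0.439). TGFB2 fell from 11 and 11.1 CPM to 5.3 and 4.86 CPM (-1.12 ± 0.28, adjusted p = 0.0374). INHBA, the activin A subunit, fell from 2.43 and 2.02 CPM to 0.596 and 0.539 CPM (-1.97 ± 0.34), and LEFTY1, an inhibitor of nodal, from 25 and 20.6 CPM to 8.88 and 3.79 CPM (-1.85 ± 0.33). PMEPA1, a feedback target of the pathway, fell from 8.11 and 6.65 CPM to 3.67 and 2.86 CPM (-1.18 ± 0.21, adjusted p = 0.0129). CCN2, a connective tissue growth factor and common TGF-beta target, was at 71.9 and 64.6 CPM and at 74.4 and 66.5 CPM, with overlapping groups (0.05 ± 0.14). IL32, a cytokine, fell from 28.4 and 23.4 CPM to 7.53 and 5.17 CPM (-2.03 ± 0.27). Of 28 tested chemokines, cytokines and receptors 1 was higher and 2 lower. These counts are near the shares over all tested genes, 5.16% higher and 5.17% lower. IL6 had 0 counts in all 8 libraries. CXCL8, the neutrophil chemokine, was at 1.4 and 0.812 CPM and at 0.307 and 0.0816 CPM and was not called (-2.53 ± 0.71, adjusted p = 0.0549).

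Lipid and chaperone genes fell in part. Of 24 tested cholesterol genes 10 were lower and 1 higher, with a median of -0.42, and without 1 untreated or 240 µg/ml library the count lower was 1 to 3. INSIG1, which holds the sterol sensor in the endoplasmic reticulum, fell from 45.8 and 50.9 CPM to 21 and 17.4 CPM (-1.33 ± 0.16), and SQLE, squalene epoxidase, from 120 and 133 CPM to 68.9 and 56.8 CPM (-1.01 ± 0.15). TM7SF2, a sterol reductase, rose from 48.7 and 44.3 CPM to 92.1 and 102 CPM (1.06 ± 0.21). FASN, fatty acid synthase, fell from 432 and 381 CPM to 207 and 209 CPM (-0.97 ± 0.15), and 5 of 21 tested fatty acid genes were lower and 0 higher, with 0 lower with any 1 of the untreated or 240 µg/ml libraries left out. Of 25 tested heat shock genes 9 were lower and 0 higher, with a median of -0.43, and without the 480 µg/ml libraries 15 were lower and without 1 untreated or 240 µg/ml library 0 or 1. HSP90AA1, the inducible HSP90, fell from 971 and 1036 CPM to 575 and 545 CPM (-0.84 ± 0.12, adjusted p = 0.00574). Chaperones of the endoplasmic reticulum went the other way in 3 of 23, among them CRELD2 from 9.3 and 8.43 CPM to 19.5 and 22.5 CPM (1.25 ± 0.21) and CALR, calreticulin, from 863 and 805 CPM to 1154 and 1318 CPM (0.57 ± 0.14), and 0 were lower. Without the 480 µg/ml libraries 9 were higher, and without 1 untreated or 240 µg/ml library 0 or 1.

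Of 31 tested targets of ATF4 and tRNA synthetases 10 were lower and 1 higher, with a median of -0.37, and 18 were lower without the 480 µg/ml libraries and 0 to 2 without 1 untreated or 240 µg/ml library. PSAT1, of serine synthesis, fell from 34.5 and 42.5 CPM to 18.4 and 18.6 CPM (-1.06 ± 0.14), and SLC7A5, an importer of large amino acids, from 105 and 103 CPM to 52.7 and 50.5 CPM (-1.02 ± 0.17). The member that rose was SESN2, a leucine sensor that is also a p53 target, from 57 and 53 CPM to 97.9 and 101 CPM (0.85 ± 0.17, adjusted p = 0.0183). Lysosomal genes rose in 11 of 37 and fell in 0, with a median of 0.34, and 20 were higher without the 480 µg/ml libraries and 0 to 2 without 1 untreated or 240 µg/ml library. CTSL, cathepsin L, rose from 69.9 and 70.2 CPM to 145 and 132 CPM (0.98 ± 0.11, adjusted p = 0.00284), and LAMP1, a membrane protein of the organelle, from 235 and 233 CPM to 409 and 359 CPM (0.72 ± 0.12). Of 79 tested cytosolic ribosomal proteins only RPS27L, itself a p53 target, was called, from 69.6 and 58.2 CPM to 115 and 116 CPM (0.86 ± 0.17), and the median of the list was 0.06.

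Against 24 µg/ml, 612 genes were higher at 240 µg/ml, 3.34% of those tested, and 638 were lower, 3.49%, so that 6.83% were called in all. KIF20A was at 51.4 and 51.2 CPM at 24 µg/ml and so 240 µg/ml lay lower by -1.18 ± 0.11 (adjusted p = 0.00434), and of the 37 G2 and mitosis genes 26 were lower. CDKN1A was at 308 and 304 CPM at 24 µg/ml, and 240 µg/ml lay above it by 1.21 (adjusted p = 0.0131). MT1X was at 18.2 and 23.2 CPM at 24 µg/ml, with a difference of -4.10 ± 0.42 for 240 µg/ml (adjusted p = 0.00539), and all 5 tested metallothioneins were lower. FGA was at 324 and 196 CPM at 24 µg/ml, with a difference of 2.31 ± 0.22 (adjusted p = 0.00434). INHBA at 24 µg/ml was at 0.604 and 0.57 CPM, close to its level at 240 µg/ml, and the difference to 240 µg/ml was -0.05 ± 0.35 (adjusted p = 0.944). Each of these values shares the 240 µg/ml libraries with the comparison against untreated cells.

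At 480 against 240 µg/ml 5 genes were higher, 0.0273% of those tested, and 42 were lower, 0.229%, while 2055 had an unadjusted p under 0.05. Of the 55 tested genes of the 3 p53 lists 0 were called in either direction by edgeR or DESeq2, while 7 were higher and 1 lower at an unadjusted p under 0.05. CDKN1A was at 763 and 1149 CPM at 480 µg/ml, a difference of 0.43 with a 95% interval of 0.0214 to 0.848 on the log2 scale. MDM2, at 498 and 421 CPM, differed by 0.21 (95% interval -0.0709 to 0.491), and FAS, at 24.3 and 21.2 CPM, by 0.08 (-0.288 to 0.45). A missed threshold does not show that the doses act alike, and the 2 libraries of 480 µg/ml lay further apart than those of any other group. DESeq2 called 38 genes higher and 282 lower for this step, and edgeR without either untreated or either 240 µg/ml library called 0 in either direction. Without the first 480 µg/ml library 397 were higher and 1033 lower, and without the second 615 and 856.

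Few list members were called at this step. Of 37 G2 and mitosis genes 6 were lower at 480 than at 240 µg/ml and 0 higher, of 13 kinesins 3 and of 45 replication genes 2 were lower, 2 of 29 intestinal genes were lower, and 2 histones were higher. The NRF2, lung factor and oncofetal lists had 1 lower member each. KIF20A fell further to 10.3 and 10.4 CPM (-1.13 ± 0.11, adjusted p = 0.014), UHRF1 to 2.63 and 2.84 CPM (-1.35 ± 0.14, adjusted p = 0.014), and LIN28A, an RNA-binding protein of embryonic cells, from 9.62 and 11.2 CPM to 4.07 and 3.82 CPM (-1.40 ± 0.14, adjusted p = 0.014). TM4SF4 fell to 52.5 and 52.4 CPM (-1.52 ± 0.15), SLC17A4 to 1.32 and 0.956 CPM (-1.71 ± 0.21), and GLP1R, the receptor of the gut hormone GLP-1, from 8.43 and 11.9 CPM to 2.91 and 2.19 CPM (-1.995 ± 0.23, adjusted p = 0.0311). H2BC4 rose to 26.2 and 26.8 CPM (1.52 ± 0.20, adjusted p = 0.039) and H1-2 to 76.9 and 94.2 CPM (1.24 ± 0.18). In these genes the 240 µg/ml libraries lay between those of 24 and 480 µg/ml without overlap. All but KIF20A and UHRF1 were named by a ranking of genes whose 240 and 480 µg/ml libraries lay apart. For them the gap between these doses follows from the rule.

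**Figure D4:**
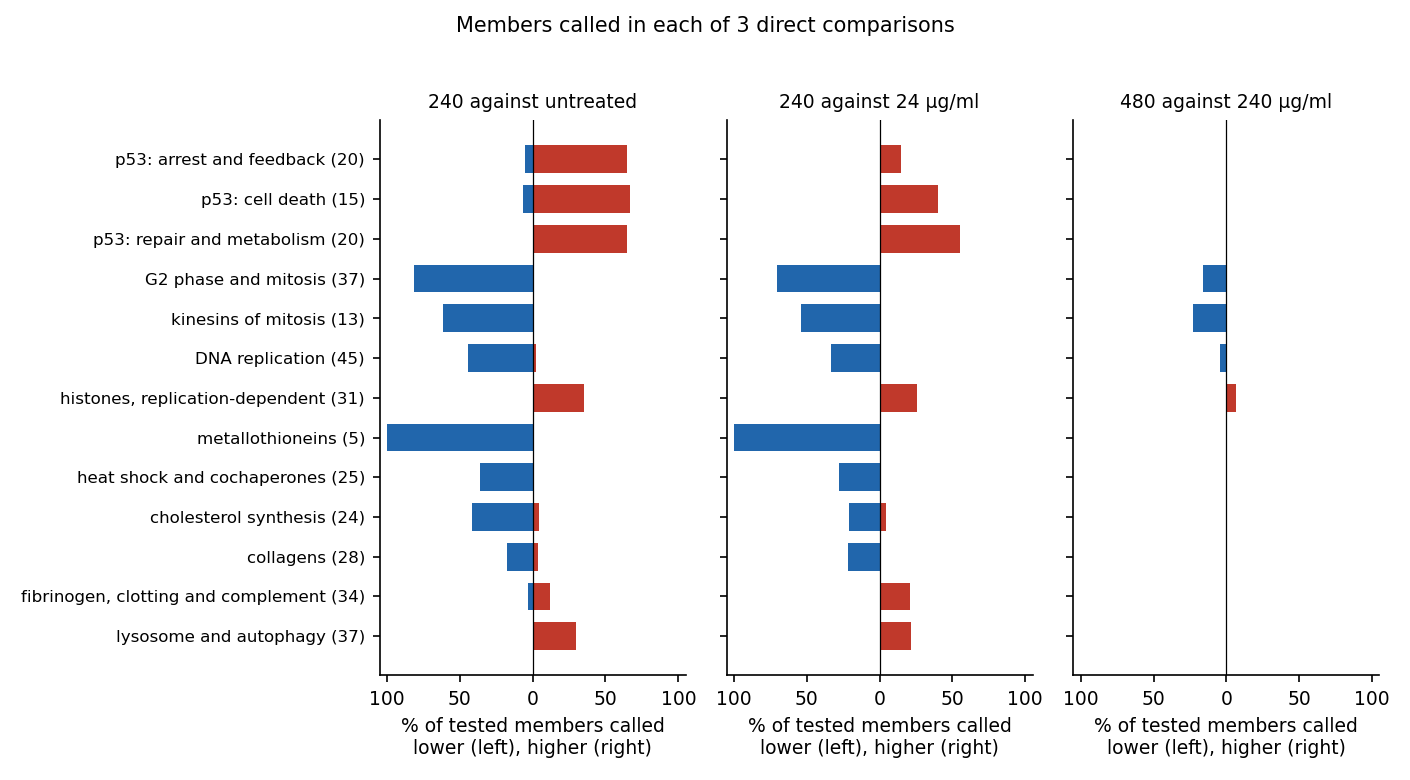
Bars give the percent of tested members of each list (number in brackets) called lower, to the left in blue, or higher, to the right in red, in 3 comparisons that share the 240 µg/ml libraries. For 480 against 240 µg/ml, where 0.257% of all tested genes were called, G2 phase and mitosis has 6 of 37 members lower. The kinesins, replication genes and replication-dependent histones also have a bar there, while the 3 p53 lists and all other lists drawn have none.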

How the data were processed

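Poly(A) RNA of 8 libraries (4 doses, 2 libraries each) was sequenced from stranded libraries, per the labels' protocols. Gene-level read counts and TPM were deposited by the authors. The submitters' processing notes name Trimmomatic, HISAT2, Bowtie2 and StringTie and the builds GRCh38 and hg38. Versions, the annotation and the strand setting are not given in the sources used here. Deposited FPKM values were not used. All columns were matched to samples by name, and total counts were 53431773 to 67715984.

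Counts were tested with edgeR 4.0.16 (R 4.3.3): TMM factors, genes kept by filterByExpr with a minimum count of 10 and a minimum total of 15, a quasi-likelihood fit with 1 term per dose over all 8 libraries (4 residual degrees of freedom, prior 4.98), and Benjamini-Hochberg adjustment over 18303 genes. CPM use TMM-scaled totals. The scripts were tested on simulated data. Alternatives were DESeq2 1.42.0, RLE factors, other count filters, only the groups compared, a replicate block, limma 3.58.1 on log2(TPM + 1), each library left out, and, chosen after seeing the data, no 480 µg/ml group. Intervals cover the fit's spread and count floors counting error only.

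Members and gene lists were chosen with earlier results of these data known. Genes named are the 15 highest and 15 lowest fold changes at average log2 CPM of at least 3 with groups apart, the 6 at each end for the other doses, up to 4 members of each list by p with 1 moving the other way, a fixed set, and those highest or most changed in TPM, of which not all are printed. DDB2 and the other genes holding a p53 element were chosen after their values were seen. Promoters are RefSeq windows of GRCh38.p14. Symbols matched RefSeq for 42656 of 46427.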

Additional observations from a re-analysis of the deposited data

How the results depend on the processing

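With 2 libraries a dose, calls rest on a shared spread, and the 480 µg/ml libraries widen it. At 240 µg/ml against untreated 945 genes were higher and 947 lower. Testing only the 2 groups compared gave 2660 and 2739, leaving out the 480 µg/ml group (chosen after seeing the data) 2487 and 2590, limma on log2(TPM + 1) 539 higher, and no count filter 1490 lower. Leaving out 1 library gave 68 to 2438 higher and 50 to 2576 lower. Against 24 µg/ml (612 and 638), only those groups gave 2081 and 2260, no 480 µg/ml group 2258 and 2464, no filter 1049 and 1326, limma 277 higher, DESeq2 1040 lower, and 1 library left out 0 to 2210 and 0 to 2420. For 480 against 240 µg/ml (5 and 42), DESeq2 gave 38 and 282, no filter 85 and 380, limma 3 and 8, only those groups 0 and 0, and 1 library left out 0 to 615 and 0 to 1033. The genes changed at least 2-fold against untreated (360 and 334) were 108 and 188 with limma, 547 higher with no filter, and 68 to 463 and 50 to 447 with 1 library left out. The cause of each shift was not tested.

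Correlations between groups of the deviations by replicate number were -0.0797 to 0.0449 across all tested genes. Noise of low counts enters them, so they cannot tell whether libraries of the same number were made together. With the number as a replicate block 628 genes were higher against untreated and 661 lower, against 24 µg/ml 279 and 342, and for 480 against 240 µg/ml 0 and 8. Under it the lower counts were 3 for recombination and Fanconi genes, 2 for break signalling, 3 for TGF-beta and 5 for heat shock genes, and the higher ones 1 for endoplasmic reticulum chaperones and 7 for lysosomal genes.

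Of 139 genes named, 122 were called, and 44 of these were called under all alternatives run. None of the 122 reversed. Calls lost were 65 and 71 without the first or second untreated library, 47 and 73 without the first or second at 240 µg/ml, 10 and 9 without the first or second at 24 µg/ml, 11 with limma and 8 with the replicate block. Among uncalled genes the sign of the log2 fold change turned for EPCAM (-0.2047 to 0.05836 over libraries left out), VIM (-0.01486 to 0.204), COL1A1 (-0.2789 to 0.04371) and CCN2 (-0.03905 to 0.1234, and -0.05881 with limma).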

Other observations

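Signalling genes other than those of TGF-beta fell in part. Of 37 tested Wnt genes 6 were lower and 2 higher, with a median log2 fold change of -0.26, against 0.009 over all genes. The 6 became 1 without either untreated library or the second treated one. DKK1, a secreted Wnt inhibitor, fell from 15.7 and 13.8 CPM to 5.65 and 4.28 CPM (-1.58 ± 0.17, edgeR adjusted p = 0.00209), and AXIN2, a feedback target of the pathway, from 10.9 and 11.9 CPM to 6.74 and 6.09 CPM (-0.83 ± 0.14). Of 19 tested Notch genes 4 were lower and 1 higher, with a median of -0.37. The 4 became 1 without either untreated library and 0 without the second treated one. JAG1, a Notch ligand, fell from 253 and 275 CPM to 154 and 130 CPM (-0.90 ± 0.14), and NRARP, a Notch target, from 22.1 and 23.3 CPM to 11.2 and 9.35 CPM (-1.15 ± 0.14). Treated and untreated libraries did not overlap for these 4 genes, which were named for a small p. SMOC2, a matrix protein of intestinal stem cells, fell from 23 and 26.2 CPM to 8.53 and 8.46 CPM (-1.53 ± 0.15).

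Interferon-induced genes and genes of antigen presentation were higher in few members. Of 33 tested interferon-induced genes 4 were higher and 1 lower, with a median of 0.31, and 11 were higher without the 480 µg/ml libraries, but 1 with limma or with any 1 of the untreated or 240 µg/ml libraries left out. Of 17 tested antigen presentation genes 3 were higher and 0 lower, with a median of 0.33, and the 3 became 1 with any 1 of those libraries left out and 9 without the 480 µg/ml ones. IFI6 rose from 1.56 and 1.71 CPM to 4.61 and 5.06 CPM (1.56 ± 0.17). TAP1, a pump that loads peptides for presentation, rose from 5.65 and 5.04 CPM to 14.4 and 14.7 CPM (1.44 ± 0.15), and HLA-B, a presenting molecule, from 45.7 and 42.3 CPM to 81.6 and 73.4 CPM (0.82 ± 0.18). LIN28A, NES, an intermediate filament of progenitors, and MUC5AC, a gel-forming mucin, fell by log2 values of -1.68, -1.52 and -2.11. MUC5AC was at 3.76 and 3.66 CPM untreated and at 0.903 and 0.816 CPM treated.

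Gene span and type went with small shifts. Protein-coding genes under 5 kb had a median log2 fold change of 0.142 and those of 100 to 300 kb one of -0.091, while genes of 300 kb or more had 0.005. Within the lowest quartile of GC content the median was 0.013 under 10 kb and -0.111 at 100 kb or more, and within the highest it was 0.154 and -0.019. Of 1578 tested long noncoding RNAs 88 were higher, 5.58%, and 22 lower, 1.39%, with a median of 0.205. Over all tested genes 5.16% were higher and 5.17% lower, so the share higher was near that of all genes. The median average log2 CPM of these RNAs was -1.21 against 3.43 over all tested genes, so their values rest on low counts. These are descriptions across genes of the same 4 libraries, and no test was made of them.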
